A study of Mus musculus with 2 samples.

Results

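The genes described here make, export and break down sphingosine-1-phosphate (S1P), a signalling lipid that draws lymphocytes out of lymph nodes. They were chosen by name, as the rows of 8 genes in both deposited tables: Sphk1 and Sphk2 (synthesis), Spns2 and Mfsd2b (export), and Sgpl1, Sgpp1, Plpp1 and Plpp3 (breakdown). All 8 had counts in each library, out of 25815 genes with counts in at least 1 of them. Inguinal lymph nodes that drained tumours in mice were profiled cell by cell. One library pooled 13 nodes of wild-type (WT) mice. The other pooled 9 nodes of ATG5 LEC-KO mice, in which the autophagy gene Atg5 is labelled as deleted in lymphatic endothelial cells (LECs). The Cre driver, the kind of tumour, the age and the number of mice are not given in the sources used here. Each library held sorted endothelial cells (viable, CD31+, CD45-, Ter119-) and sorted immune cells (viable, CD45+, CD31-, Ter119-) of its genotype, put together. The antibody to Ter119 set red cells aside in both groups.

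Inside cells, sphingosine kinases phosphorylate sphingosine to S1P, and transporters carry it across the plasma membrane. S1P lyase cleaves it irreversibly, while phosphatases return it to sphingosine, either in the endoplasmic reticulum or at the cell surface. S1P is plentiful in lymph and blood and scarce in lymphoid tissue, and lymphocytes follow this difference through the receptor S1PR1 into the cortical and medullary sinuses. Lymphatic endothelium is known as the source of the S1P in lymph.

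No member overlaps another in the genome. On mm10, Sphk1 spans chr11:116530925-116536674 on the plus strand and Spns2 chr11:72451638-72489904 on the minus strand. Sgpp1 (chr12:75714249-75735729) and Mfsd2b (chr12:4862440-4874359) are both on the minus strand. Sphk2 spans chr7:45709467-45718002 and Sgpl1 chr10:61098642-61147703, also on the minus strand, while Plpp1 (chr13:112800792-112867894) and Plpp3 (chr4:105157347-105232764) are on the plus strand. All 8 are annotated as protein-coding.

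Promoter windows of 7 of the 8 genes, 12 windows in all, were found in RefSeq for GRCm38.p6, the same assembly as mm10. The 250 bases before the annotated start are shown for 3 genes that stand for the main expression patterns: Spns2, highest in lymphatic endothelium; Plpp3, highest in blood endothelium; and Sgpp1, highest in lymphocytes and myeloid cells. Sequences run 5′ to 3′ on the gene's strand, with each CpG in capitals. The windows are chr11:72475028-72475277 for Spns2, chr4:105157097-105157346 for Plpp3 and chr12:75735730-75735979 for Sgpp1.
Spns2: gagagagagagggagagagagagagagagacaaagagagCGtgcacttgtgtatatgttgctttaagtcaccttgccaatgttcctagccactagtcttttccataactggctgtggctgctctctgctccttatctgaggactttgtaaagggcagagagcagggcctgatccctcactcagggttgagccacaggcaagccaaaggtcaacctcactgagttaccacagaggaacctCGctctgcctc
Plpp3: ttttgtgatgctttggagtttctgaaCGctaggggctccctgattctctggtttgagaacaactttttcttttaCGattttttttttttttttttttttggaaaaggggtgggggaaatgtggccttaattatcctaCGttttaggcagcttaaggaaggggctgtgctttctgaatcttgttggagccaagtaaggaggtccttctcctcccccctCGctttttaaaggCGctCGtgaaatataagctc
Sgpp1: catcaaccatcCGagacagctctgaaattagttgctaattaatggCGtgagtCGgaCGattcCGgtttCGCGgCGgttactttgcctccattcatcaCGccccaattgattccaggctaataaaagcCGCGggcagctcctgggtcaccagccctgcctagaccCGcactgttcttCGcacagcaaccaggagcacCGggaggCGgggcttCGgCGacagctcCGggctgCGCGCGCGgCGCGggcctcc

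The Spns2 window held 2 CpG and that of Plpp3 held 6, against 24 in the window of Sgpp1. Over all 32841 promoter windows the median was 6 CpG, with quartiles of 2 and 16. At least as many CpG as in Sgpp1 were present in 11.98% of windows, and at least as many as in Spns2 in 81.2%. The GC content was 51.6% for Spns2, 42.4% for Plpp3 and 61.2% for Sgpp1. None of the 3 windows held the GC box GGGCGG on either strand, which 32.7% of all windows did. The RefSeq start of Spns2 lies inside the longer gene span given above, and no exon of the gene falls in its window. These letters describe the windows only.

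The tables held 23649554 UMIs (unique molecular identifiers, each standing for 1 captured transcript) over 119938 barcodes in the WT library and 23089918 over 111135 in the other. After calling and filtering, 3874 and 4158 cells were clustered, with medians of 3506 and 3342.5 UMIs, and 14 cell barcodes occurred in both libraries. Classes were named by resemblance to marker genes: LECs (718 and 215 cells), blood endothelial cells (BECs; 646 and 507), B cells (1358 and 1571), T cells (998 and 1655) and myeloid cells (51 and 84). Prox1, the lymphatic lineage factor, stood at 1320 and 1334 CPM (UMIs of a gene per 1000000 UMIs of the class) in LECs and at 5.99 and 10.2 CPM in BECs, and Cd79a and Cd3e marked B and T cells. Of the lymphatic list, Ccl21a went the other way, at 4.16 and 8.17 CPM in LECs and 331 and 366 CPM in BECs. Atg5 itself did not separate the libraries in LECs, at 40.8 CPM (95% interval 35.7 to 46.3) in WT and 44.0 CPM (34.3 to 55.6) in the other. A 3′ tag outside the deleted part would check nothing, and where these tags lie relative to it is not given. The second library is therefore called KO-labelled throughout. There was 1 library per genotype, so no difference between genotypes could be tested. Intervals below are exact 95% intervals for counting error only, which leaves out the spread between mice. The share of male cells, from sex-linked transcripts, also differed between the libraries: among cells with a call, 71.2% of LECs were male in WT and 50.9% in the KO-labelled library.

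Sphk1, the inducible cytoplasmic sphingosine kinase, was mainly a lymphatic transcript. Its level in LECs was 16.7 CPM (13.5 to 20.3; 96 UMIs) in WT and 8.17 CPM (4.35 to 14.0; 13 UMIs) in the KO-labelled library. In BECs it was 3.33 CPM in WT and 1.51 CPM in the KO-labelled library, from 10 and 4 UMIs. LECs thus held 5.001 times (2.60 to 10.8) the BEC level in WT and 5.40 times (1.67 to 22.7) in the KO-labelled library. B cells gave 1 UMI in WT and T cells 3 in the KO-labelled library, and all other counts in B, T and myeloid cells were 0. Taking 3 counts as the limit that a count of 0 allows, levels of up to 0.850 CPM in WT T cells and 7.50 CPM in the few WT myeloid cells would have gone unseen. Within blood endothelium, cells resembling high endothelial venules (HEVs), the vessels through which lymphocytes enter the node, carried 7 of 10 Sphk1 UMIs in WT and 4 of 4 in the KO-labelled library. Their levels were 15.1 CPM (6.09 to 31.2) in WT and 17.9 CPM (4.87 to 45.8) in the KO-labelled library. These could not be separated from those of LECs (ratios to LECs of 0.909, 0.356 to 1.95, and 2.19, 0.520 to 7.08). Sphk1 shares 192 exonic bases with the antisense gene Gm29292, and the strand used in counting is not given. Gm29292 stood at 3.99 and 2.51 CPM in LECs and at 0 in BECs. Its part in the Sphk1 profile was not tested.

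Sphk2, the nuclear and mitochondrial kinase, had a flat profile over LECs, BECs and B cells. Its level was 15.6 and 15.7 CPM in LECs of the WT and KO-labelled libraries, 17.3 and 16.7 CPM in BECs, and 18.0 and 16.5 CPM in B cells. T cells stood somewhat above, at 26.6 CPM (21.5 to 32.6) in WT and 20.2 CPM (16.8 to 24.1). The WT level of T cells was 1.71 times (1.26 to 2.303) that of LECs and 1.54 times (1.08 to 2.20) that of BECs. In the KO-labelled library these ratios were 1.29 (0.831 to 2.06) and 1.21 (0.853 to 1.75), and LECs, BECs and B cells could not be separated in either library. Myeloid cells gave 15.01 CPM from 6 UMIs and 33.8 CPM from 22. Sphk2 shares 373 exonic bases with Rpl18 and 539 with Dbp on the opposite strand. Whether the counting used the strand is not given, and Rpl18 stood at 201 to 685 CPM in LECs, BECs, B and T cells, highest in T cells as well. Its part in the Sphk2 profile was not tested.

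**Figure D1:**
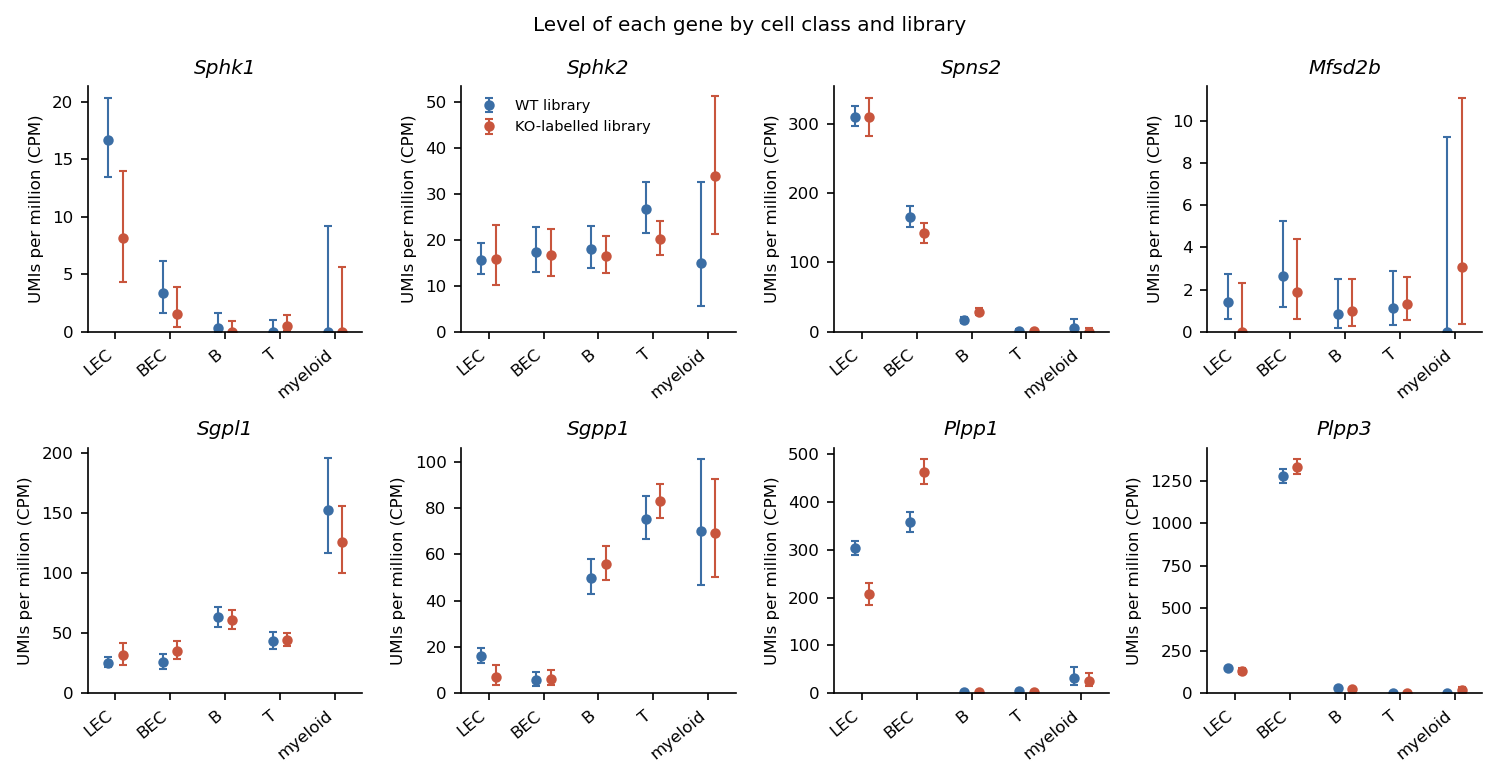
Level of each of the 8 genes, in CPM (linear axes that differ between panels), in LECs, BECs, B, T and myeloid cells of the WT and KO-labelled libraries; points are the pooled level of a class and bars the exact 95% counting interval. Sphk1 and Spns2 peak in LECs, Plpp3 in BECs at 1277 and 1333 CPM, Sgpl1 in myeloid cells at 153 and 126 CPM, and Sgpp1 in T and myeloid cells. Sphk2 is nearly level over LECs, BECs and B cells, and Mfsd2b is near 0.

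Spns2, the S1P transporter of endothelial cells, had its highest level in LECs, at 311 CPM (296 to 325; 1791 UMIs) in WT and 309 CPM (283 to 338; 492 UMIs) in the KO-labelled library. BECs gave 166 CPM (152 to 181) and 142 CPM (128 to 157). LECs therefore exceeded BECs 1.87 times (1.69 to 2.07) in WT and 2.18 times (1.90 to 2.50) in the KO-labelled library, and the intervals of the classes did not overlap in either. At least 1 Spns2 UMI was found in 74.9% of LECs of both libraries, against 42.3% and 39.6% of BECs. LECs were sequenced more deeply per cell (medians of 8199.5 and 7856 UMIs, against 4388.5 and 4565 in BECs). Cells were also thinned to 2000 UMIs, and those with fewer were left out (14 WT and 8 KO-labelled LECs, 84 and 51 BECs). Of the cells kept, 41.3% (WT) and 43.5% (KO-labelled) of LECs had Spns2, and 23.0% and 19.96% of BECs.

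Spns2 was also present in B cells and nearly missing from T cells. The B cell level was 17.1 CPM (13.1 to 22.0; 60 UMIs) in WT and 29.1 CPM (24.1 to 34.8; 120 UMIs) in the KO-labelled library. T cells stood at 1.70 CPM (6 UMIs) and 1.31 CPM (8 UMIs). The B over T ratio was 10.1 (4.36 to 28.5) in WT and 22.1 (10.9 to 52.4) in the KO-labelled library. Shares of cells with a UMI were 3.90% and 6.24% of B cells at medians of 2690 and 2692 UMIs per cell, against 0.501% and 0.423% of T cells at 3478.5 and 3646. Free RNA, read from barcodes with at most 100 UMIs, held Spns2 at 106 CPM in WT and 49.4 CPM in the KO-labelled library. The lymphatic marker Prox1, which neither lymphocyte should express, was alike in both: 5.99 and 3.39 CPM in B cells, 3.97 and 1.97 CPM in T cells. The 10 lymphatic markers summed to 31.6 and 15.5 CPM in B cells and to 29.5 and 17.7 CPM in T cells, and the 10 blood endothelial ones to 53.0 and 39.97 CPM and to 85.3 and 103 CPM. The latter list holds Ly6c1, which was among the leading genes of CD4-like T cells. Plvap, an endothelial gene, was higher in B cells, at 8.84 and 5.81 CPM, than in T cells, at 2.83 and 1.97 CPM. The 6 ceiling markers summed to 42.8 and 37.3 CPM in B cells and to 14.2 and 6.41 CPM in T cells. This list was not particular to LECs, where it summed to 5528 and 2697 CPM, against 3586 and 3251 CPM in BECs. Of its members, Ackr4 was nearly alike in both lymphocytes, at 4.28 and 0.727 CPM in B cells and 3.68 and 0.329 CPM in T cells. The part of endothelial RNA in the B cell level of Spns2 was not tested. Spns2 also overlaps Mybbp1a by 131 exonic bases on the other strand. That neighbour stood at 108 and 125 CPM in B cells and 101.1 and 120 CPM in T cells. Germinal-centre-like B cells gave 1 Spns2 UMI in WT and 0 in the KO-labelled library.

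Mfsd2b, the S1P exporter of red cells and platelets, was barely present. It gave 62 UMIs over all WT barcodes and 45 over all KO-labelled ones, of which 23 and 19 were in clustered cells. No class of the 5 exceeded 3.07 CPM. Free RNA held more, at 8.16 and 3.83 CPM. The 7 erythroid markers summed to at most 9.32 CPM in any of these classes.

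Of the breakdown genes, Sgpl1 and Sgpp1 were highest in immune cells and Plpp1 and Plpp3 in endothelium. Sgpl1 encodes S1P lyase, which removes S1P for good. Its highest level was in myeloid cells, at 153 CPM (117 to 196; 61 UMIs) in WT and 126 CPM (100.2 to 156; 82 UMIs) in the KO-labelled library. B cells followed at 63.3 and 61.0 CPM, then T cells at 43.3 and 44.5 CPM. Endothelium was lowest: LECs stood at 25.5 CPM (21.5 to 29.97) and 32.1 CPM (23.9 to 42.2), and BECs at 26.0 CPM (20.5 to 32.4) and 35.6 CPM (28.8 to 43.5). LECs and BECs did not differ beyond their intervals in either library, and in the KO-labelled one neither did BECs and T cells. Myeloid cells exceeded LECs 5.98 times (4.36 to 8.12) in WT and 3.93 times (2.74 to 5.69) in the KO-labelled library. B cells exceeded T cells 1.46 times (1.18 to 1.81) and 1.37 times (1.15 to 1.63). Free RNA held Sgpl1 at 68.2 CPM in WT and 79.2 CPM in the KO-labelled library, above B cells, T cells, LECs and BECs. The part of free RNA in these levels was not tested.

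Sgpp1, the S1P phosphatase of the endoplasmic reticulum, was highest in lymphocytes and myeloid cells. T cells gave 75.3 CPM (66.6 to 85.0) in WT and 83.0 CPM (75.9 to 90.5) in the KO-labelled library. Myeloid cells gave 70.0 and 69.1 CPM and B cells 49.9 and 55.7 CPM, so that T cells stood above B cells and myeloid cells could not be placed against either. Plasmacytoid dendritic-like cells reached 96.6 CPM (14 UMIs) and 113 CPM (19 UMIs). BECs held 5.66 and 6.06 CPM, and the T over BEC ratio was 13.3 (8.16 to 23.2) in WT and 13.7 (8.35 to 24.1) in the KO-labelled library. LECs differed between the libraries, at 16.0 CPM (12.9 to 19.6) in WT and 6.91 CPM (3.45 to 12.4) in the KO-labelled one. The niches that carried it are given with the lymphatic niches.

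Plpp1 and Plpp3 encode lipid phosphate phosphatases of the cell surface, which dephosphorylate extracellular lysophospholipids including S1P. Plpp3 was the blood endothelial member of the pair. Its level in BECs was 1277 CPM (1237 to 1318) in WT and 1333 CPM (1290 to 1378) in the KO-labelled library, against 147 and 132 CPM in LECs. BECs exceeded LECs 8.68 times (8.05 to 9.36) in WT and 10.1 times (8.79 to 11.7) in the KO-labelled library. B cells held 29.6 CPM (104 UMIs) and 26.4 CPM (109 UMIs), and T cells 3.12 CPM in each library. The B over T ratio was 9.51 (5.10 to 19.6) and 8.46 (5.17 to 14.6), beside which Cdh5, an endothelial junction gene, stood at 6.27 and 6.30 CPM in B cells and 3.12 and 2.14 CPM in T cells. Plpp3 in free RNA was 207 and 166 CPM. Myeloid cells gave 0 Plpp3 UMIs in WT and 13 in the KO-labelled library, with Cdh5 at 7.50 and 33.8 CPM in the same cells. The 10 blood endothelial markers summed there to 40.02 CPM in WT (Ly6c1, Sox17 and Cd34 at 0) and 161 CPM (Sox17 at 0). Their part in the myeloid Plpp3 was not tested.

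Plpp1 was shared by both endothelia. LECs held 304 CPM (290 to 319) in WT and 207 CPM (185 to 230) in the KO-labelled library, and BECs 358 CPM (337 to 380) and 463 CPM (438 to 490). B cells stood at 2.85 and 2.42 CPM and T cells at 3.97 and 2.63 CPM. Plpp1 shares 452 exonic bases with Mtrex on the opposite strand. That neighbour stood at 34.3 to 74.9 CPM in LECs, BECs, B and T cells, highest in B cells. Its part in the Plpp1 profile was not tested. Germinal-centre-like B cells and a dendritic group stood above other immune cells.
Germinal-centre-like B cells (28 and 23 cells) gave 26.8 CPM (8 UMIs) and 53.5 CPM (17 UMIs), or 9.39 times (3.22 to 26.4) and 22.1 times (9.56 to 54.0) the level of other B cells. A myeloid sub-cluster led by Xcr1 and Clec9a, genes of cross-presenting dendritic cells, held 13 of 13 myeloid Plpp1 UMIs in WT and 16 of 17 in the KO-labelled library, from 6 and 18 cells. Its level was 186 CPM and 72.5 CPM. Both groups were small, and their Plpp1 rests on few UMIs.

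In LECs over BECs, 3 of 7 measured members were higher past 1.5-fold in WT (Sphk1, Spns2 and Sgpp1) and 1 was lower (Plpp3). A gene was measured where the compared classes held at least 20 UMIs together. Across all genes 38.1% were past that fold in either direction. In the KO-labelled library 1 of 6 was higher (Spns2) and 2 were lower (Plpp1 and Plpp3), beside 39.9% of all genes. With 7 and 6 genes, no more is read from these counts. Sphk1 in the KO-labelled library had too few UMIs to be counted, and Sgpp1 stood at 1.14 times (0.479 to 2.62) the BEC level.

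Lymph node LECs line distinct parts of the sinus system. The ceiling faces the afferent lymph, the floor lies over the cortex, and medullary and paracortical sinuses are where lymphocytes leave. LEC sub-clusters resembled the ceiling of the subcapsular sinus (440 WT and 103 KO-labelled cells), its floor (140 and 7) and the medullary or paracortical sinuses (73 and 92). With 7 floor-like cells in the KO-labelled library, floor levels there are given only in passing. Spns2 was high in ceiling-like cells, at 386 CPM (365 to 407) in WT and 396 CPM (349 to 446) in the KO-labelled library. Medullary/paracortical-like cells held 310 CPM (267 to 358) and 276 CPM (240.0 to 316), or 0.804 times (0.685 to 0.938) and 0.698 times (0.579 to 0.840) the ceiling-like level. Floor-like cells of WT had 83.5 CPM (67.3 to 103), which was 0.217 times (0.173 to 0.268) the ceiling-like level and below the BEC level as well. The 7 floor-like cells of the KO-labelled library gave 2 Spns2 UMIs.

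The breakdown genes of the immune pair had the opposite order in WT. Sgpp1 stood at 51.4 CPM (38.8 to 66.8; 56 UMIs) in floor-like cells, at 18.5 CPM (9.25 to 33.2; 11 UMIs) in medullary/paracortical-like cells and at 5.76 CPM (3.52 to 8.89; 20 UMIs) in ceiling-like cells. The floor over ceiling ratio was 8.93 (5.28 to 15.7), and the floor-like interval overlapped that of B cells. Sgpl1 followed with 48.7 CPM (36.4 to 63.6) against 19.3 CPM (14.9 to 24.5), a ratio of 2.52 (1.73 to 3.67). The surface phosphatases sided with Spns2: Plpp1 was 110 CPM against 408 CPM, a ratio of 0.270 (0.222 to 0.325), and Plpp3 was 60.6 CPM against 184 CPM, a ratio of 0.329 (0.252 to 0.425). Sphk1, at 23.9 CPM (15.6 to 35.0) against 17.0 CPM (12.9 to 21.9), and Sphk2, at 21.1 CPM (13.4 to 31.7) against 15.5 CPM (11.7 to 20.3), had overlapping intervals. Floor-like cells of WT thus had less Spns2, Plpp1 and Plpp3 transcript and more Sgpl1 and Sgpp1 transcript than ceiling-like cells. The kinase levels could not be separated. In all, 2 of 7 measured members were higher past 1.5-fold and 3 lower, where 39.4% of all genes were past that fold. In medullary/paracortical-like cells Plpp1 was again below the ceiling-like level, at 0.297 times (0.231 to 0.376) in WT and 0.312 times (0.239 to 0.406) in the KO-labelled library. Plpp3 was 0.412 times (0.298 to 0.558) and 0.209 times (0.142 to 0.300).

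**Figure D2:**
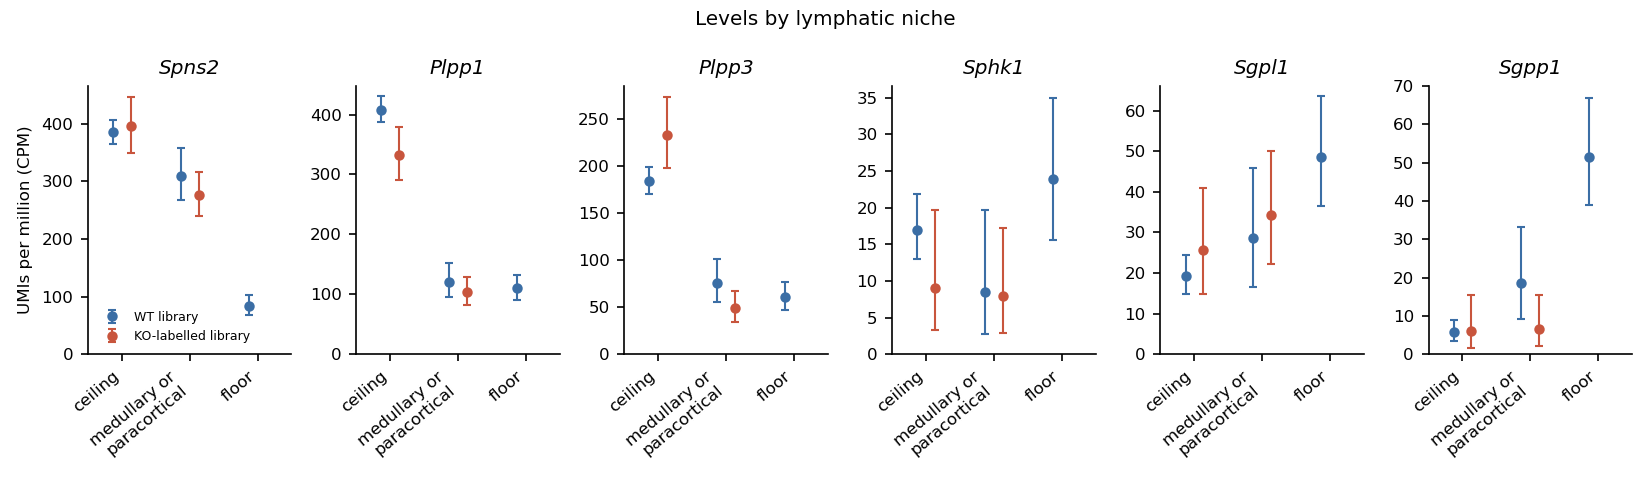
Levels in CPM (linear axes that differ between panels) in LECs resembling the ceiling, the medullary or paracortical sinuses and the floor, with the exact 95% counting interval; the floor is drawn for WT only. In WT, Spns2 is at 386 CPM in ceiling-like and 83.5 CPM in floor-like cells, while Sgpp1 is at 5.76 and 51.4 CPM.

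Blood endothelium was divided by vessel type for the same genes. Spns2 in WT was highest in HEV-like cells, at 249 CPM (205 to 299), then in venous-like cells, at 190 CPM (132 to 264), and lowest in arterial-like cells, at 53.2 CPM (23.0 to 105). Tip-like capillary cells, which resemble sprouting endothelium, lay between at 99.7 CPM (77.0 to 127). In the KO-labelled library the values were 156 CPM (109 to 218) for HEV-like, 199 CPM (103 to 347) for venous-like, 34.1 CPM for arterial-like and 107 CPM for tip-like cells. HEV-like and venous-like cells did not differ beyond their intervals in either library. Plpp1 and Plpp3 were lower in HEV-like than in arterial-like cells, at 108 and 89.4 CPM for Plpp1 and 599 and 331 CPM for Plpp3. Arterial-like cells held 419 and 501 CPM of Plpp1 and 924 and 1024 CPM of Plpp3. The highest Plpp3 of any WT sub-cluster with at least 20 cells in both libraries was 3514 CPM (3298 to 3739; 73 cells), in cells of no named vessel type led by Itm2a, Col13a1 and Btnl9. In the KO-labelled library those cells (43) held 2328 CPM (2080 to 2597), and the highest level was 2604 CPM (2473 to 2740; 84 cells), in tip-like cells led by Esm1 and Angpt2.

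**Figure D3:**
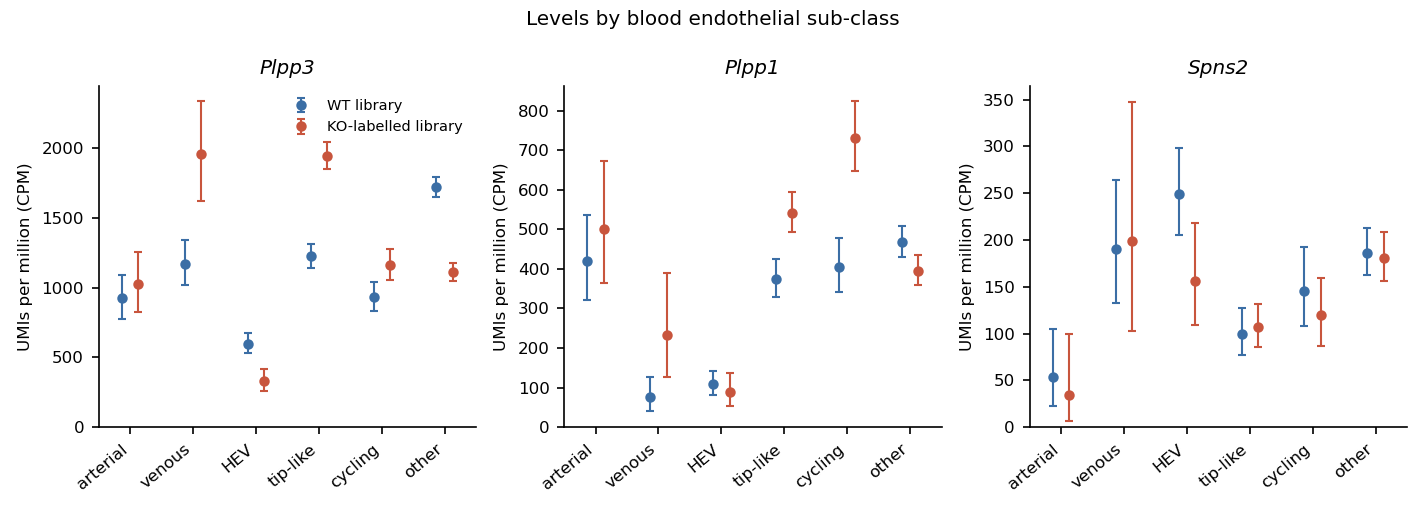
Levels of Plpp3, Plpp1 and Spns2 in CPM (linear axes that differ between panels) in blood endothelial sub-classes of both libraries, with the exact 95% counting interval; "other" pools sub-clusters of several kinds. HEV-like cells are the highest WT sub-class for Spns2 (249 CPM) and the lowest for Plpp3 (599 CPM).

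Between the libraries, Spns2 in LECs had a KO-labelled over WT ratio of 0.995 (0.899 to 1.10). Within ceiling-like cells the Spns2 ratio was 1.03 (0.895 to 1.17). Without sub-clusters of which 90% or more came from 1 library, the ratio over LECs was 0.840 (0.751 to 0.939). In the ceiling-like sub-cluster led by Igfbp5 and Lpl it was 0.592 (0.404 to 0.853). The other LEC sub-clusters with at least 20 cells in both libraries had intervals that included 1. Their ratios were 1.16 (0.953 to 1.40) and 0.802 (0.559 to 1.13) in ceiling-like cells and 0.897 (0.710 to 1.14) in medullary/paracortical-like cells. In LECs 2 of 7 measured members were past 1.5-fold, both lower in the KO-labelled library (Sphk1 and Sgpp1), beside 24.3% of all genes past that fold in either direction. The median log2 ratio of these 7 was -0.16, against 0.03 for all genes. Sphk1 had a ratio of 0.491 (0.252 to 0.879). Without the ceiling-like sub-cluster led by Fst and Cdkn1a, which had 90 WT cells and 1 KO-labelled cell and the most Sphk1 UMIs in WT, the ratio was 0.579 (0.294 to 1.05). Sgpp1 had a ratio of 0.433 (0.209 to 0.812). Within ceiling-like cells it was 1.05 (0.260 to 3.12). One floor-like sub-cluster held 56.5% of the Sgpp1 UMIs of WT LECs, with 119 WT cells and 7 KO-labelled ones, and without it the ratio over LECs was 0.785 (0.350 to 1.60). Both sub-clusters set aside here were those with the most WT UMIs of the gene, a choice that tends to raise the ratio. Sphk2, at 1.01 (0.619 to 1.58), had an interval that included 1. So did Sgpl1 over all LECs, at 1.26 (0.896 to 1.74), though not in male LECs, at 1.64 (1.04 to 2.51). Plpp3 was 0.897 (0.768 to 1.04) over all LECs. It was 0.758 (0.587 to 0.966) in male LECs and 0.764 (0.611 to 0.946) in cells with at most 10% mitochondrial UMIs. Without the 1-library sub-clusters it was 0.755 (0.633 to 0.897), but in pooled ceiling-like cells 1.27 (1.06 to 1.51). The ceiling-like sub-clusters with at least 20 cells in both libraries had Plpp3 intervals that included 1. Their ratios were 0.490 (0.200 to 1.04), 0.918 (0.662 to 1.25) and 1.22 (0.888 to 1.67).

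Plpp1 in LECs had a ratio of 0.680 (0.603 to 0.766). The same sub-cluster led by Fst and Cdkn1a had the most Plpp1 UMIs in WT. That group held 778 Plpp1 UMIs at 1131 CPM (1053 to 1213), or 44.4% of the Plpp1 UMIs of WT LECs, and 97.8% (Clopper-Pearson 92.2 to 99.7) of its 90 WT cells had at least 1. Cd36, a fatty acid receptor, and Angptl4, an inhibitor of lipoprotein lipase, were also among its leading genes. Of those 90 cells 78 were male, 0 female and 12 without a call. Without this sub-cluster, the ratio over LECs was 1.08 (0.947 to 1.22). Since it was picked for its WT UMIs of Plpp1, leaving it out tends to raise the ratio. In the KO-labelled library 38.6% of LEC Plpp1 UMIs came from another ceiling-like sub-cluster, led by Igfbp5 and Lpl, with 342 CPM (279 to 415; 38 cells) in WT and 700 CPM (584 to 833; 25 cells) in the KO-labelled library. The sexes of its cells differed too, with 23 male and 11 female WT cells and 4 male and 19 female KO-labelled cells. The Plpp1 ratio in this sub-cluster was 2.05 (1.57 to 2.69). In the other ceiling-like sub-clusters with at least 20 cells in both libraries it was 0.796 (0.556 to 1.12) and 0.945 (0.595 to 1.46). In the medullary/paracortical-like one it was 0.654 (0.455 to 0.943). Mitochondrial transcripts made up 7.24% of LEC UMIs in WT, against 10.4% in the KO-labelled library. Cells with at most 10% of them gave a Plpp1 ratio of 0.486 (0.403 to 0.582).

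Among male LECs Plpp1 was 367 CPM in WT and 160 CPM in the other library, with a ratio of 0.436 (0.355 to 0.530). Among female LECs it was 174 and 252 CPM, a ratio of 1.45 (1.19 to 1.76). In ceiling-like cells alone the levels were 510 and 211 CPM for male cells and 216 and 523 CPM for female cells. With the Fst and Cdkn1a sub-cluster set aside, male ceiling-like cells of WT stood at 254 CPM (229.5 to 281; 185 cells), against 211 CPM (163 to 268; 48 cells) in the KO-labelled library. The female values were unaffected, since that sub-cluster had no female cell. Of the 35 female ceiling-like cells of the KO-labelled library, 19 were in the sub-cluster led by Igfbp5 and Lpl. Female levels without those cells were not computed. The direction of the Plpp1 difference was thus opposite in male and female cells over all LECs and in ceiling-like ones. This contrast was not tested. Without the Fst and Cdkn1a sub-cluster, the intervals of the male ceiling-like levels overlapped. In medullary/paracortical-like cells both sexes lay below 1, with intervals that included it: 0.699 (0.411 to 1.16) in male and 0.853 (0.484 to 1.56) in female cells. Whether the mice, their sex or the genotype set these levels cannot be told apart with 1 pool per genotype.

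**Figure D4:**
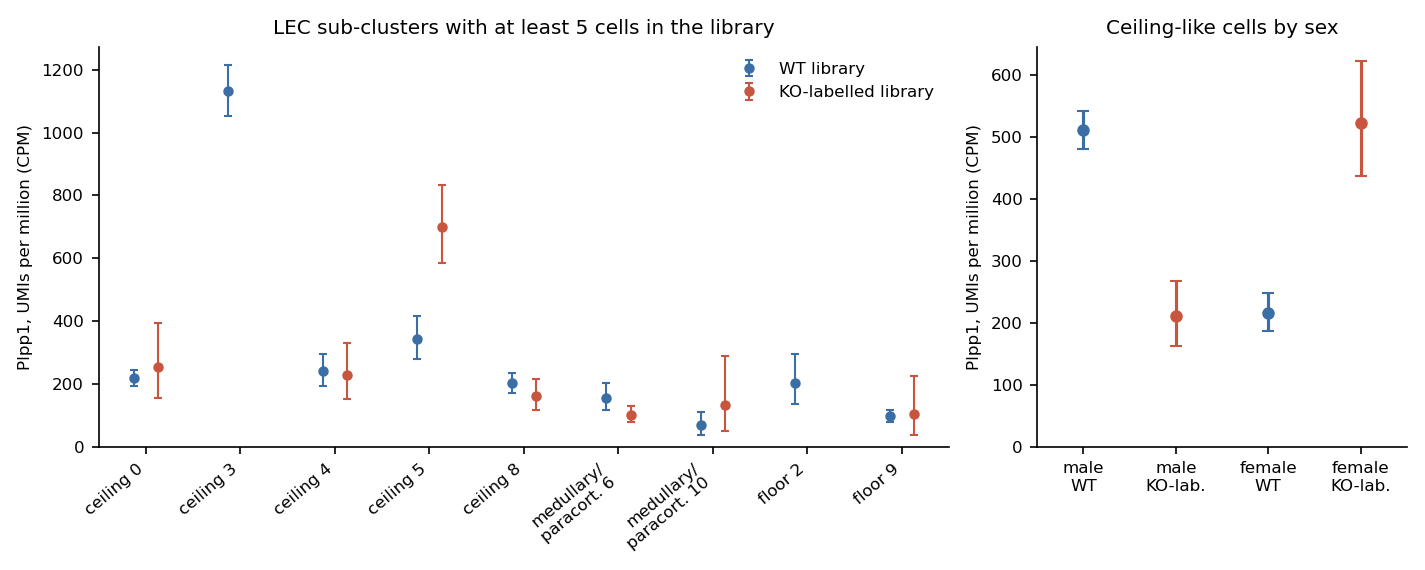
Plpp1 in CPM (linear axes), on the left in each LEC sub-cluster with at least 5 cells in the library and on the right in male and female ceiling-like cells, for both libraries, with the exact 95% counting interval. The WT sub-cluster led by Fst and Cdkn1a stands apart at 1131 CPM, and the KO-labelled level is below WT in male cells (211 against 510 CPM) and above it in female cells (523 against 216 CPM).

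In BECs none of the 6 measured members was past 1.5-fold, beside 16.4% of all genes. One BEC sub-cluster (83 WT and 26 KO-labelled cells) was led by pericyte genes such as Rgs5 and Acta2, and ratios are given with and without it. Plpp1 over all BECs was higher in the KO-labelled library, with a ratio of 1.29 (1.19 to 1.40), or 1.36 (1.24 to 1.48) without that sub-cluster. Spns2 was lower, with 0.854 (0.745 to 0.979), or 0.870 (0.755 to 1.002) without it. Spns2 was 0.931 (0.802 to 1.08) without the HEV-like sub-cluster. That sub-cluster held the most Spns2 UMIs of WT BECs (23.0%), a choice that tends to raise the ratio. Spns2 was 0.954 (0.798 to 1.14) in male BECs against 0.627 (0.451 to 0.871) in female ones. Sgpl1 was higher, with 1.37 (1.004 to 1.87), or 1.37 (0.990 to 1.90) without the pericyte-led sub-cluster and 1.01 (0.669 to 1.52) in male BECs. Plpp3 had ratios of 1.04 (0.997 to 1.09) with the sub-cluster and 1.06 (1.01 to 1.1102) without it. The sub-clusters differed in direction, which was not tested. Plpp3 was 1.60 times (1.45 to 1.78) as high in the KO-labelled tip-like cells led by Esm1 and Angpt2, and 0.618 times (0.504 to 0.754) in tip-like cells led by Ccl2 and Apln. HEV-like cells had a ratio of 0.552 (0.421 to 0.716), and the cells led by Itm2a one of 0.662 (0.582 to 0.752). HEV-like cells also had less Spns2, with a ratio of 0.629 (0.418 to 0.925). In cycling BECs Plpp1 was 405 CPM in WT and 732 CPM in the other, with a ratio of 1.81 (1.47 to 2.23). The other BEC sub-clusters with at least 20 cells in both libraries had Plpp1 intervals that included 1. Their ratios ran from 0.728 (0.515 to 1.02) to 1.21 (0.809 to 1.79), on both sides of 1. Of HEV-like cells with a sex call, 90.2% of WT and 43.2% of KO-labelled ones were male. The part of this in their ratios was not tested.

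In B cells 1 of 6 measured members was past 1.5-fold, Spns2, which was higher in the KO-labelled library at 1.70 (1.24 to 2.36), while 11.4% of all genes were past that fold. It was higher in 2 of the 4 largest B cell sub-clusters beyond counting error: 17.5 and 32.6 CPM in the largest, a ratio of 1.86 (1.12 to 3.19), and 19.3 and 46.0 CPM in another, a ratio of 2.39 (1.24 to 4.83). The other two had ratios of 1.53 (0.681 to 3.75) and 0.844 (0.322 to 2.10). Among male B cells the ratio was 1.70 (0.973 to 3.001) and among female ones 1.32 (0.626 to 3.13). Beside it, Prox1 and Plvap in B cells and free Spns2 RNA, given above, were lower in the KO-labelled library. Other endothelial genes in B cells were higher there or alike: Flt1 at 6.56 and 8.48 CPM, Glycam1 at 4.85 and 7.75 CPM, and Cdh5 at 6.27 and 6.30 CPM. The overlapping Mybbp1a stood at 108 and 125 CPM. The part of endothelial RNA or of Mybbp1a in this ratio was not tested.
In T cells 1 of 5 measured members was past 1.5-fold, beside 11.5% of all genes. This was Plpp1, at 3.97 and 2.63 CPM, with a ratio of 0.663 (0.303 to 1.47) from 14 and 16 UMIs. Sgpp1, at 1.10 (0.947 to 1.28), and Sgpl1, at 1.03 (0.839 to 1.26), had intervals that included 1. Sphk2 was lower in CD8-like T cells of the KO-labelled library, at 18.9 CPM against 32.6 CPM, a ratio of 0.581 (0.394 to 0.855), whereas in CD4-like T cells it was 22.5 against 19.96 CPM, a ratio of 1.13 (0.674 to 1.93). In myeloid cells 1 of 4 measured members was past 1.5-fold, beside 32% of all genes. It was Sphk2, with a ratio of 2.25 (0.885 to 6.79) from 6 and 22 UMIs. Sgpl1, the most abundant there, was 0.825 times (0.585 to 1.17) as high in the KO-labelled library.

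**Figure D5:**
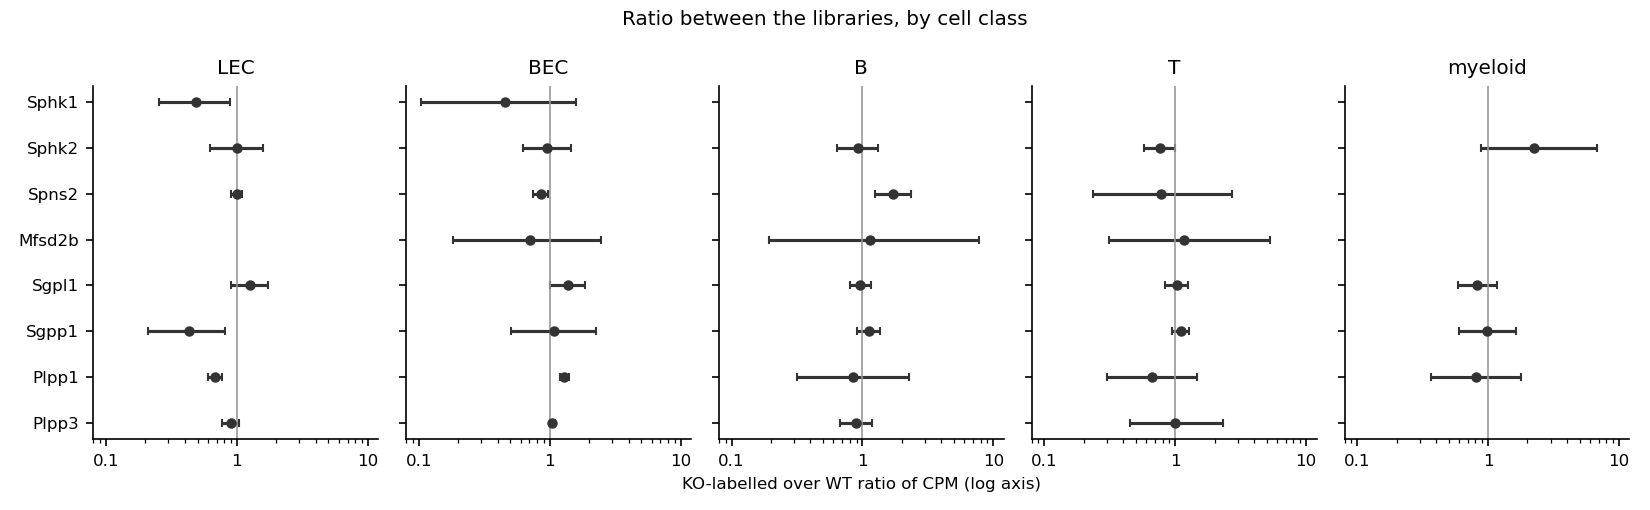
Ratio of the KO-labelled to the WT level (log axis) of each gene in LECs, BECs, B, T and myeloid cells, with the exact 95% counting interval; genes with too few UMIs for a ratio are left out, and the line marks 1. In LECs Sphk1, Sgpp1 and Plpp1 lie below 1 with their intervals, in BECs Plpp1 and Sgpl1 lie above and Spns2 below, and in B cells Spns2 lies above.

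Of 56 other genes of S1P and ceramide metabolism, 55 were in the tables. In LECs 43 were measured, of which 3 were higher past 1.5-fold in the KO-labelled library and 2 lower, beside the 24.3% of all genes past that fold. Acer3, an alkaline ceramidase that releases sphingosine, was 49.1 CPM in WT and 97.4 CPM in the other library, with a ratio of 1.98 (1.62 to 2.42). The S1P receptor gene S1pr4, also among the higher ones, was 3.82 and 11.9 CPM. The lower ones were Cers6, a ceramide synthase, at 0.597 (0.321 to 1.04), and S1pr3, a receptor with 39 UMIs in WT and 0 in the KO-labelled library, whose ratio was at most 0.279 against the limit of 3 counts. Of those 39 UMIs 36 were in floor-like cells: floor-like WT cells held 33.0 CPM and ceiling-like ones 0.576 CPM, a ratio of 57.4 (14.8 to 492). S1pr1, the receptor that guides egress, was not past the fold, with levels of 991 and 883 CPM in LECs.

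Of 3 other transporters held to move S1P, 2 were higher past 1.5-fold in floor-like than in ceiling-like cells, and the third, Abca1, was 0.891 times (0.818 to 0.969) as high. In WT floor-like cells Abcg2 was 113 CPM and Abcc1 74.4 CPM, against 42.3 and 29.1 CPM in ceiling-like cells, ratios of 2.67 (2.08 to 3.41) and 2.56 (1.89 to 3.46). Cerk, the ceramide kinase, was lower in floor-like cells, at 8.26 against 51.5 CPM, as were Cers6, at 0.277 (0.0984 to 0.635), and Sptssa, a subunit of the enzyme that opens sphingolipid synthesis, at 0.375 (0.306 to 0.456). Over all 41 measured genes 10 were higher in floor-like cells past 1.5-fold and 10 lower, where 39.4% of all genes were past it. Between LECs and BECs of WT 8 of 43 were higher and 5 lower, where 38.1% of all genes were past it. The higher ones included Sptssa, at 235 against 58.3 CPM, Ugcg, which makes glucosylceramide, at 455 against 199 CPM, and B4galt6, the next enzyme on that path, at 207 against 39.96 CPM. Abcg2 was lower in LECs, at 57.8 against 321 CPM, and S1pr4 at 3.82 against 24.0 CPM. In BECs 2 of 41 genes were higher past the fold in the KO-labelled library and 4 lower, in B cells 3 of 40 and 2, and in T cells 2 of 39 and 3. The shares of all genes past the fold were 16.4%, 11.4% and 11.5%. Degs1, which makes ceramide from dihydroceramide, was 231 and 362 CPM in BECs of the WT and KO-labelled libraries, and Abcg2 was 5.67 and 17.6 CPM in T cells.

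As a description of profile, each gene was set against 11843 others over 20 classes of cells, by Pearson's r of log2(CPM + 1) averaged over both libraries. The classes share libraries and endothelial and immune sorts, so high values are common. Each class counted alike, including small ones such as neutrophil-like cells (6 and 5 cells), which gave 0 Sphk2 UMIs in each library. The part of such classes in these values was not tested. Spns2 was most like Myct1 (0.96), Ptpn14 (0.96) and Caskin2 (0.95). Plpp3 was nearest to Sorbs3 (0.97), Tcim (0.97) and Fzd4 (0.97), and Plpp1 to Nbea (0.97), Cd36 (0.96) and Ctnnd1 (0.95). Sgpp1 lay nearest to Ctss (0.90), Ppif and N4bp2l1, Sphk1 to Asxl3 (0.96), Ackr2 and Nfatc4, and Sphk2 to Bud13 (0.94), Ivd and Trappc12. For Sgpl1 the closest profiles, Gm37494 (0.84), Zup1 and Jarid2, were less alike, and Mfsd2b had too few UMIs. Among the members, Spns2 and Plpp3 had r = 0.89, Plpp1 and Plpp3 0.88, and Sgpl1 and Sgpp1 0.65, while Sgpp1 and Plpp3 had r = -0.66.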

How the data were processed

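The deposited values are counts of UMIs (RSEC-adjusted molecules) per gene and barcode, made with the BD Rhapsody whole-transcriptome pipeline 1.11 on an mm10 reference, per the file headers, with intronic reads kept and barcodes unfiltered. The strand used in counting is not given in the sources used here. Barcodes were called at the minimum of the second derivative of the cumulative UMI curve (log scales) between ranks 500 and 60000, then kept with at least 200 genes and at most 25% mitochondrial UMIs (3901 WT and 4189 KO-labelled cells). Doublets called at an expected rate of 6% (27 and 31 cells) were removed. Clustering (scanpy 1.11.5, Leiden at resolution 1 overall and within each compartment, from 15 neighbours in 30 principal components of 2000 genes) left out the genes described, their pathway lists and mitochondrial, ribosomal, antigen-receptor, predicted (Gm) and sex-linked genes. Sub-clusters mixing cell types were left out of all classes, and naming thresholds were set after seeing the clusters.

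Counts were summed per class and library and divided by the class total without mitochondrial genes (CPM). Levels have exact Poisson intervals, ratios exact conditional binomial ones and shares Clopper-Pearson ones, all at 95%, and PCR and sampling of mice are not covered. The limit for a count of 0 in ratios is 3 counts per class and library. A ratio was not given where both counts were at most 3. The calculation was tested on simulated counts. Sex was called from Xist and Y-linked UMIs. No test was run, since each genotype is 1 library.

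The 8 genes and the pathway and marker lists were chosen with earlier results of these data known. Every gene of the 8 is named. Other pathway genes were to be named by the largest log2 ratios of each list, and further ones named here were chosen after their values were seen. For likeness, genes needed 100 UMIs, and the pseudocount was 1. Alternatives were cell filters, resolution 2, each sex, weights and raw molecules. Leaving out the pericyte-led, the 1-library or the leading sub-cluster was chosen after seeing the data. The leading sub-cluster is the one with the most WT UMIs of the gene, so leaving it out tends to raise the KO-labelled over WT ratio. One gene counted in the pathway list is not reported here by name.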

Additional observations from a re-analysis of the deposited data

Results flagged for a closer look

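Ratios of KO-labelled over WT levels were set against each other among the 5 classes, between the sexes of a class, and among the sub-classes of LECs, BECs or T cells. Pairs on opposite sides of 1, each with a counting interval that left out 1, are listed here. None of these differences between cells was tested, and the intervals cover counting error only.

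Spns2 was 0.854 in BECs and 1.70 in B cells. Plpp1 was 0.680 in LECs and 1.29 in BECs. Within LECs, Plpp1 was 0.436 in male and 1.45 in female cells, and within ceiling-like LECs 0.413 in male and 2.42 in female cells. Among blood endothelial sub-classes, Plpp1 was 3.05 in venous-like cells (14 UMIs in each library), 1.45 in tip-like cells and 1.81 in cycling cells. In the pooled other BECs it was 0.847. Within the tip-like sub-clusters its intervals included 1. The ratios there were 1.12 (0.940 to 1.34) in cells led by Esm1 and Angpt2 and 1.21 (0.809 to 1.79) in those led by Ccl2 and Apln. Plpp3 was 1.105 in male BECs and 0.818 in female BECs. By sub-class it was 1.67 in venous-like, 1.59 in tip-like and 1.25 in cycling cells, against 0.552 in HEV-like cells and 0.646 in the pooled other BECs.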

How the results depend on the processing

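Of 329 alternative values for 33 ratios between libraries, 301 stayed within the main counting interval and 26 left it. The last 2, both of Plpp1 in LECs, changed direction from a main ratio whose interval left out 1. Some of the 26, such as those of Plpp3 in BECs, also crossed 1, from a main ratio whose interval included 1. Of 353 values for 37 ratios between classes, 313 stayed within it and 40 left it. Of 720 values for 80 levels 91 left it, and of 160 values for 80 shares of cells with a UMI, all from thinning to fewer UMIs per cell, 85 did. Leaving out sub-clusters was chosen after seeing the data, and leaving out the one with the most WT UMIs of a gene tends to raise its ratio. No paired analysis was possible because each genotype is 1 library. Low counts limit Sphk1, Mfsd2b and the KO-labelled floor-like cells. The cause of each shift was not tested.

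For KO-labelled over WT in LECs, the Plpp1 ratio reached 1.45 in female cells, and 1.08 when cells of the sub-cluster with the most of its WT UMIs were set aside, both opposite in direction. It was 0.436 in male cells, 0.486 in cells with at most 10% mitochondrial UMIs, 0.982 without sub-clusters of which 90% or more came from 1 library, and 0.835 with equal weights over sub-classes. Plpp3 was 0.764, 0.758 and 0.755 with the mitochondrial limit, in male cells and without the 1-library sub-clusters, where Spns2 was 0.840 (0.751 to 0.939). In BECs, female cells gave 1.57 for Sphk2, 0.627 for Spns2, 2.09 for Sgpl1 and 0.818 for Plpp3, and male cells 2.84 for Sgpp1 and 1.105 for Plpp3. Plpp1 was 1.41 and Plpp3 1.22 without their leading sub-cluster, 1.17 and 0.875 as means over cells, and 1.16 and 0.917 with equal weights. The Plpp3 values in BECs thus lay on both sides of 1, around a main ratio whose interval included 1.

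For LECs over BECs in WT, Spns2 was 2.08 in male cells, 1.38 in female cells and 2.299 without the 1-library sub-clusters. Plpp3 was 0.106 with the mitochondrial limit, 0.150 in female cells, 0.132 without the 1-library sub-clusters and 0.103 as a mean over cells. In the KO-labelled library it was 0.0801 with the mitochondrial limit, 0.0764 in male cells, 0.154 in female cells and 0.115 as a mean over cells. For floor-like over ceiling-like cells in WT, Spns2 was 0.279 with at least 2000 UMIs per cell, 0.165 in male cells and 0.300 in female cells.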
